A study of Mus musculus with 2 samples.

Results

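The replication-dependent histone genes encode the bulk of the core and linker histones that package newly copied DNA. They were taken as all gene symbols that start with Hist1h, Hist2h, Hist3h or Hist4h, without pseudogenes marked by the ending -ps, which gave 67 of the 32285 genes counted. Of the 67 genes, 62 had at least 20 unique molecular identifiers (UMIs, each standing for 1 captured RNA molecule) over the kept cells of both libraries. By histone type, 6 genes of 6 were measured for the linker histone H1, 15 of 18 for H2A, 16 of 18 for H2B, 12 of 12 for H3 and 13 of 13 for H4. The H2B gene Hist1h2ba and the H2A gene Hist1h2aa, which lie next to each other and are best known from the testis, had 0 UMIs in the main population and in the immune cells.

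Replication-dependent histone genes are transcribed mainly in S phase, when each new nucleosome needs fresh histones. Their messages are the only common animal messages that end in a short stem-loop in place of a poly(A) tail, and the stem-loop binding protein SLBP carries the message through processing, export, translation and decay at the end of S phase. A smaller set of these genes also gives longer, polyadenylated messages, mostly in differentiated or resting cells. The assay used here primes reverse transcription on poly(A), so a stem-loop message without a tail is captured poorly, and the levels given here are those of captured ends, not of all histone messages.

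The study asked how tumours of CMT167R, a mouse lung carcinoma line labelled as resistant to anti-PD1 antibody, respond to a compound labelled PKCi. The cells were placed under the skin of C57BL/6 mice, and the genotype is labelled WT. The control library came from mice given solvent and the PKCi library from mice given 3 mg/kg of the compound daily into the peritoneum, and tumours were taken once the controls had grown to 400 mm3 and the 2 arms differed in volume. The number, age and sex of the mice behind each library are not given in the sources used here. Each group has 1 library, so compound, animal and library cannot be told apart, no test between groups was possible, and all 95% intervals cover counting error only.

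The control library held 222641855 UMIs in 6688 barcodes and the PKCi library 229219749 UMIs in 7457 barcodes, and 6269 and 7078 cells were kept, with medians of 32992 and 29550.5 UMIs. Both libraries contained 20 of the same barcodes. The main population, 4896 control and 5362 PKCi cells, was taken as the clusters rich in the keratin Krt8. Levels are given as CPM, the UMIs of a gene for every 1e+06 UMIs that the cells of a class and library hold, and Krt8 was at 380 and 481 CPM. Of the 7 genes fixed as markers of the carcinoma, the placental homeobox gene Rhox5 (540 and 469 CPM) and vimentin, Vim (2791 and 2696 CPM), were also high there. Krt7 was at 0.197 and 0.373 CPM, Sox4 at 0.0444 and 0.0823, Krt19 had at most 1 UMI in either library and Cdkn2a had 0 UMIs, so 4 of the 7 were absent or nearly so. Immune cells were named by marker genes as monocyte-like (491 and 464 cells), macrophage-like (314 and 635), neutrophil-like (267 and 167), T-like (65 and 118), NK-like (36 and 51) and dendritic-like (9 and 25), and 148 and 199 cells stayed unnamed.

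The 3′ ends decide what this assay can capture, so the annotated transcripts (GENCODE release M21, build GRCm38) were searched for the stem-loop as GGNNNNTTNNNNNNCC with arms that pair. The form was present in 44 of the 67 genes and in 0.276% of 58725 other coding transcripts. The following windows are the stem-loops of genes that the results turn on, with the 16 bases of the stem and loop in capitals.
Hist1h2ap: aaaaGGCTCTTTTCAGAGCCatc
Hist1h1e: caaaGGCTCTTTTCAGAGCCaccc
Hist1h1c: aaaaGGCTCTTTTCAGAGCCacca
Hist3h2a: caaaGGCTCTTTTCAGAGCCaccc
Hist1h3c: aaaaGGCTCTTTTAAGAGCCacct
Hist2h2ac: aaaaGGCTCTTTTTAGAGCCacca
Hist1h4d: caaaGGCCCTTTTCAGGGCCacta
Hist1h4i: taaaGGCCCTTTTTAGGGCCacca
The most frequent form, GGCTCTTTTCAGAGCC, was in 26 genes, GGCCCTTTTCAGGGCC in 7 genes, all of them H4, and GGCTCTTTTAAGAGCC in 6 genes.

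How far the annotated transcript ran past the stem-loop differed between genes. The H2A transcript of Hist1h2ap (chr13:21833026-21833507, minus strand) stopped 3 bases past it, that of Hist2h2ac (chr3:96220361-96220880, minus strand) 57 bases past it and the H3 transcript of Hist1h3c (chr13:23744973-23745602, minus strand) 74 bases past it. The transcript of the linker histone gene Hist1h1c (chr13:23738808-23740367, plus strand) ran on for 840 bases, that of the linker histone gene Hist1h1e (chr13:23620629-23622558, minus strand) for 1153 bases and that of the H2A gene Hist3h2a (chr11:58954685-58956830, plus strand) for 1643 bases. In the whole set, 22 transcripts ended within 100 bases of the stem-loop, 22 ran further and 23 held no stem-loop of this form. The search says only that these letters were not in the annotated transcript. Several of the 23, such as Hist1h2bl (381 bases), Hist1h2ai (393 bases) and Hist1h4k (312 bases), have annotated transcripts no longer than the coding sequence. In these a stem-loop past the coding sequence could not have been found. Those 23 include the linker histone gene Hist1h1b (chr13:21779883-21780625, minus strand), with 743 bases in 1 exon, and the H2B gene Hist1h2bc (chr13:23684199-23692908, plus strand), with 1156 bases in 2 exons.

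The poly(A) signal AATAAA lay near the end of 9 of the 22 transcripts that ran on, of 4 of the 23 without the stem-loop and of 0 of the 22 that stopped at it. Hist1h1c, Hist3h2a, Hist2h2be and Hist1h2bc turned out to differ from most histone genes across the cell cycle. Hist1h2bc had no AATAAA near its annotated end, so no window is shown for it. The windows that follow, with the signal in capitals, are those of the others and of Hist1h2ae, a high H2A gene that did not differ.
Hist1h1c: tgcttctAATAAAaagcgtt
Hist3h2a: tatgcccAATAAAataagag
Hist2h2be: tattattAATAAAgttaccg
Hist1h2ae: cttctccAATAAAtgggtca
The H2B gene Hist2h2be (chr3:96221119-96223738, plus strand) carried the signal and no stem-loop, and Hist1h2ae (chr13:23570517-23571220, minus strand) carried both.

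Many of these genes are close copies of each other, which limits how surely a UMI belongs to 1 gene. The median gene shared 55.2% of its 31-base words with other histone genes, and 39 of the 67 shared at least 50%. Hist1h1b shared 3.09%, Hist3h2a 3.31%, Hist1h1c 11.4%, Hist1h4d 14.7%, Hist1h1e 19.6%, Hist1h2bc 31.7% and Hist1h4i 33.6%, so their values are the more secure ones. The H2A gene Hist1h2ap shared 93.4%, and its level is uncertain in the sense that the counting could have moved UMIs to or from its copies. The annotated transcript of the H2B gene Hist1h2be overlaps Hist1h1e on the same strand, so UMIs of these genes may also be exchanged.

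Upstream regions were compared because histone genes of 1 type are known to share promoter elements. In RefSeq promoters of GRCm38 (250 bases before to 50 after the start, 62 of 67 genes matched by symbol), the octamer ATTTGCAT, searched on both strands, was in 7 of 18 H2A and 6 of 16 H2B promoters and in 0 of those of the other types, against 1.74% of all 32851 promoters. CCAAT was in 53 of the 62, with only 3 of 12 H4 promoters among them, against 37.4% of all, and TATAAA in 35 of the 62, against 13.6%. Some H2A and H2B genes lie in pairs whose promoter windows overlap, so the same match can be counted for both genes. The octamer of Hist1h2ae and Hist1h2bg is such a match, and the H2A and H2B shares are not independent. The 250 bases before the start are shown for an H2A gene with the octamer and for the most abundant linker histone gene without it, with every match to a motif or its reverse complement in capitals. Hist1h2ab lies at chr13:23750838-23751087 on the plus strand and Hist1h1b at chr13:21780626-21780875 on the minus strand.
Hist1h2ab: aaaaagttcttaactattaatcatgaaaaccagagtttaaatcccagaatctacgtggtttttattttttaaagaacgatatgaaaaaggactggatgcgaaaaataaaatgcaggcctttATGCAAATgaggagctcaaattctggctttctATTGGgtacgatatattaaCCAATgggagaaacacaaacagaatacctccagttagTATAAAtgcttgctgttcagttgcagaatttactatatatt
Hist1h1b: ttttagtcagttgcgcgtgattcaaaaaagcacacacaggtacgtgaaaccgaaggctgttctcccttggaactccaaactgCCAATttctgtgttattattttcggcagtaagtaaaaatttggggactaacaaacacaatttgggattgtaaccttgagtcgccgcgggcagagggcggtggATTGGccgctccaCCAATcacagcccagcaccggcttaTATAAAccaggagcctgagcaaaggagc
Hist1h2ab held 1 octamer, read as ATGCAAAT, beside 2 matches to CCAAT and 1 to TATAAA, and Hist1h1b held 3 matches to CCAAT and 1 to TATAAA. A match describes the letters and is no evidence of binding.

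Histone genes gave 256909 UMIs in the control and 291255 in the PKCi library, which was 0.119% and 0.130% of all UMIs of the kept cells. A few genes made up most of this. Hist1h2bc, Hist1h1b, Hist1h1e, Hist1h1c, Hist1h2ae, Hist1h2ap and the H4 gene Hist1h4d together held 69.9% of the histone UMIs in the control and 74.3% in the PKCi library. Levels of different genes are in CPM and are not scaled by length, since the 3′ assay gives about 1 tag for each captured end.

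In the main population, linker histone genes were the largest type, with 427 CPM in the control and 494 in the PKCi library. H2A genes followed with 341 and 342 CPM, H2B genes with 212 and 294, H4 genes with 129 and 117 and H3 genes with 91.6 and 82.2. The nucleosome holds the core histones in equal numbers and fewer linker histones, and the captured ends did not have those proportions. Hist1h1b was the single highest gene in the control, at 184 CPM, and Hist1h2bc was the highest in the PKCi library, at 224 CPM. The 18 measured genes whose transcripts stop within 100 bases of the stem-loop held 20.1% and 17.8% of the histone UMIs of the main population, the 22 that run on held 45.9% and 45.2%, and the 19 without the stem-loop form held 34.1% and 37.0%.

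The question of which histone genes follow S phase was asked inside each library, by counting how many of 42 S phase genes (mainly replication and nucleotide synthesis genes, none of them histone genes) had a UMI in each cell after all cells were thinned to 5000 UMIs. The list also holds Slbp, Casp8ap2 and Nasp, which are counted below among genes of histone supply. Cells of the main population with 9 or more S phase genes were set beside those with 0 to 2, a grouping chosen after the data were seen. The groups held 2454 and 456 control cells and 2560 and 523 PKCi cells, while 49 control cells and 193 cells given PKCi fell short of 5000 UMIs and were not used. All histone genes together stood at 619 CPM in control cells with 0 to 2 S phase genes, 891 with 3 to 8 and 1458 with 9 or more. In PKCi cells the same groups stood at 823, 1046 and 1579. Most histone genes were thus higher in cells that carried many S phase messages, and the step from the lowest to the highest group was 2.35-fold in the control and 1.92-fold in the PKCi library.

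Of the histone genes, 56 had at least 20 UMIs in these groups, and 47 of them in the control and 46 in the PKCi library were at least 1.5 times higher in the cells with more S phase genes. Over all genes with as many UMIs, 20.1% and 22.3% were that much higher. At least 1.5 times lower were 4 histone genes in the control and 3 in the PKCi library, against 13.2% and 12.8% of all genes. Cells with 9 or more S phase genes also held more UMIs, with medians of 44124.5 and 41674 against 25258.5 and 22582, and the part of total RNA content in these ratios was not tested.

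Among linker histone genes, Hist1h1b has the highest level. It stood at 12.3 CPM in control cells with 0 to 2 S phase genes and at 262 in those with 9 or more (21.3-fold, 18.2 to 25.2), and at 18.3 and 270 CPM in PKCi cells (14.7-fold, 12.99 to 16.8). Hist1h1a, another linker histone gene, went from 0.963 to 23.2 CPM in the control and from 0.988 to 22.8 in the PKCi library. Hist1h1e went from 32.0 to 163 CPM in the control and from 42.3 to 192 in the PKCi library. These 3 linker histone genes therefore moved with the S phase genes by 4.53-fold or more in each library.

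Core histone genes of all types took part. The H2A gene Hist1h2ap stood at 9.63 and 134 CPM in the low and high groups of the control and at 14.7 and 148 in the PKCi library. The H3 gene Hist1h3c stood at 2.09 and 42.4 CPM in the control (20.3-fold, 13.9 to 31.2) and at 2.28 and 36.7 in the PKCi library (16.1-fold, 11.3 to 23.9). The H4 gene Hist1h4d stood at 17.8 and 125 CPM in the control (7.01-fold, 6.14 to 8.04) and at 17.6 and 113 in the PKCi library (6.39-fold, 5.61 to 7.31).

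A small set ran the other way. The H2B gene Hist1h2bc stood at 251 CPM in control cells with 0 to 2 S phase genes and at 102 in those with 9 or more (ratio 0.405, 0.389 to 0.421), and at 388 and 180 in PKCi cells (0.465, 0.451 to 0.479). Hist1h1c stood at 148 and 74.7 CPM in the control (0.505, 0.480 to 0.531) and at 199 and 106 in the PKCi library (0.532, 0.510 to 0.555). Hist3h2a stood at 33.2 and 18.5 CPM in the control (0.556, 0.501 to 0.620) and at 30.5 and 21.7 in the PKCi library (0.713, 0.641 to 0.794). Hist2h2be had a ratio of 0.655 in the control and 0.654 in the PKCi library. These 4 genes had an interval under 1 in both libraries. Because Hist1h2bc holds most of the H2B UMIs, the H2B genes as a type went from 279 to 192 CPM in the control and from 413 to 267 in the PKCi library, while H2A genes went from 87.5 to 443 and from 87.4 to 447.

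**Figure D1:**
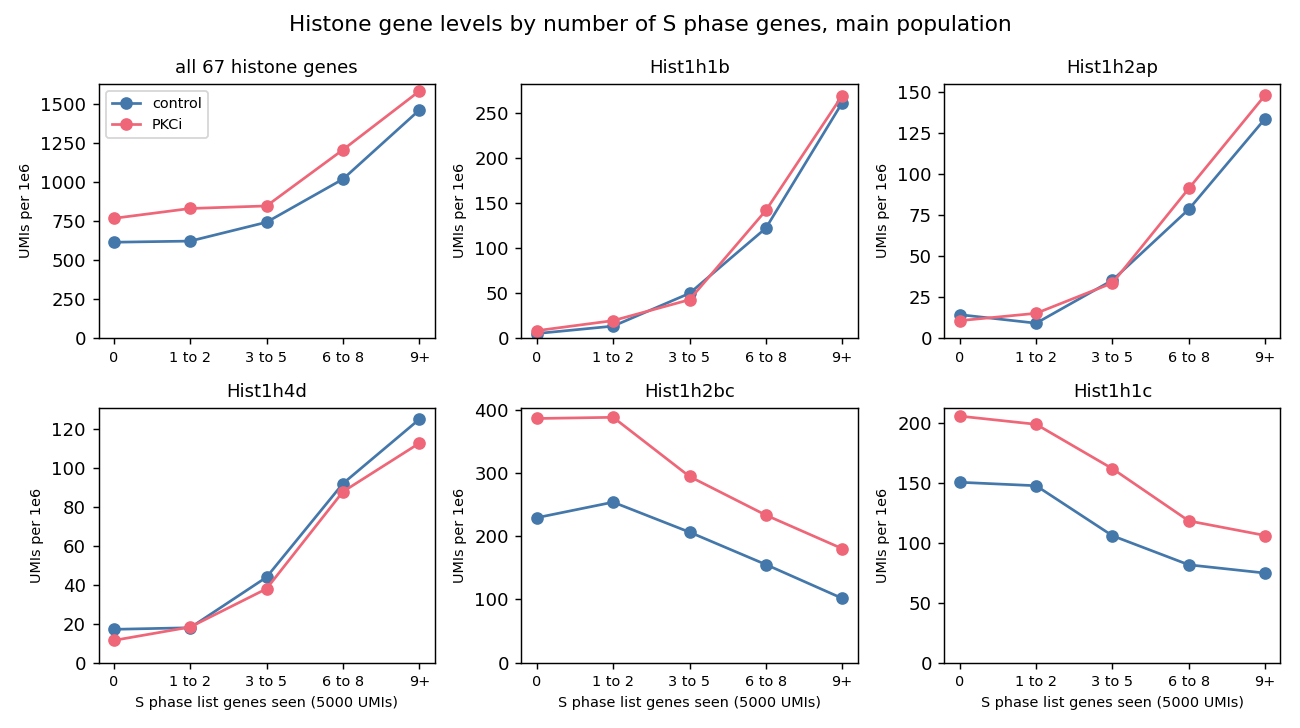
Level in CPM (vertical axes, from 0) of all 67 histone genes together and of 5 single genes in main population cells grouped by the number of S phase genes seen after thinning to 5000 UMIs (horizontal axes), with the control and PKCi libraries as separate lines. Hist1h1b, Hist1h2ap and Hist1h4d are highest in cells with 9 or more S phase genes in both libraries, while Hist1h2bc and Hist1h1c are lowest there.

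The grouping written down for this question put a cell among S phase cells at 3 or more S phase genes. Only 32 control and 37 PKCi cells had fewer than 3 genes of the S phase list and of the G2/M list, and these are called cells with neither. By this grouping, S phase cells of the control stood at 1239 CPM of histone genes against 442 in cells with neither (2.80-fold, 2.51 to 3.13). Those of the PKCi library stood at 1365 against 807 (1.69-fold, 1.57 to 1.83). Most of these S phase cells, 4323 control and 4575 PKCi cells, also passed the same cut for G2/M genes. The 68 control and 71 PKCi cells that passed the cut for S phase genes only stood at 548 and 608 CPM. That was 1.24 times (1.09 to 1.41) the level of cells with neither in the control, but 0.753 times (0.685 to 0.830) in the PKCi library. The cells with neither held just 325 and 675 histone UMIs. A gene without UMIs in the cells with neither has no ratio and could not be ranked. Of 55 genes with at least 200 UMIs in the main population, 25 had a ratio in both libraries. Among genes with a ratio, the 5 highest by this grouping were Hist1h2ap, Hist1h1b, Hist2h2ac, the H3 gene Hist1h3e and Hist1h2ae, with ratios between 5.90 and 77.2. The 5 lowest were the H2A gene Hist1h2ad, the H3 gene Hist2h3c2, Hist1h2bc, Hist2h2be and Hist1h1c, whose ratios ran from 0.234 to 1.73.

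The level of the histone genes was then set beside the S phase and G2/M lists at once, since captured histone ends need not peak with the S phase list. Control cells with 9 or more S phase genes but at most 5 of 52 G2/M genes stood at 405 CPM of histone genes (42 cells), below the 510 of cells low in both lists. Control cells with 13 or more G2/M genes stood at 937 CPM when they had 0 to 2 S phase genes (29 cells) and at 1655 when they had 9 or more. In the PKCi library the same 4 groups stood at 552 (48 cells), 781, 1202 (36 cells) and 1762 CPM. Hist1h1b stood at 10.3 and 14.1 CPM in cells with many S phase and few G2/M genes, at 55.7 and 94.7 in those with few S phase and many G2/M genes, and at 307 and 312 in those with many of both. The highest levels were found in cells that carried many G2/M genes, which hold Top2a, Mki67 and other genes whose messages build up from late S phase on.

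**Figure D2:**
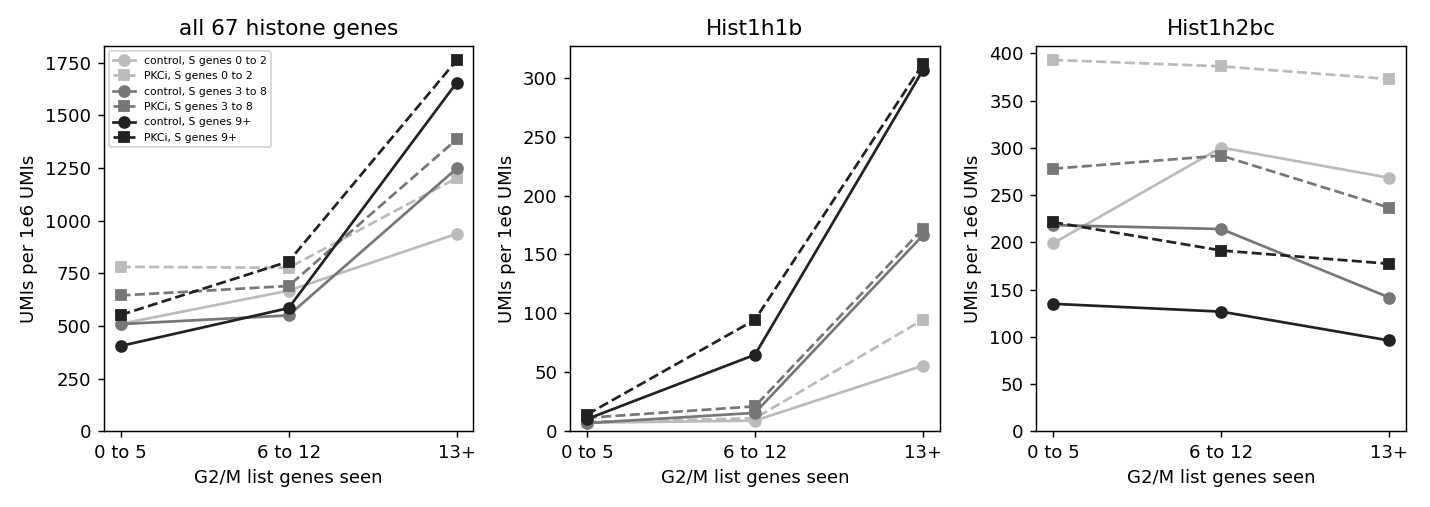
Levels in CPM (vertical axes, from 0) of all histone genes, Hist1h1b and Hist1h2bc in main population cells by the number of G2/M genes (horizontal axes) and of S phase genes (shades of grey), with solid and dashed lines for the libraries as in the legend. The total and Hist1h1b are highest where both counts are high, at 1655 and 1762 and at 307 and 312 CPM, and stay low where S phase genes are many and G2/M genes are few.

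The S phase ratios were also set against the annotated ends, since a transcript that runs past the stem-loop can carry a poly(A) tail. The median ratio between high and low S phase groups was 3.97 in the control and 5.12 in the PKCi library for the 18 measured genes that stop within 100 bases of the stem-loop. It was 2.07 and 2.33 for the 22 that run on, and 5.71 and 6.25 for the 19 without the stem-loop form. Several of the 19 have annotated transcripts that stop at the end of the coding sequence, so these genes need not lack the stem-loop. Ratios below 1 were seen in 1 and 0 of the 18 genes, 4 and 4 of the 22, and 2 and 2 of the 19. The classes overlapped widely, since Hist1h1e and Hist1h4d run on past the stem-loop and had ratios of 4.53 or more. The split at 100 bases was chosen after the values were seen.

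**Figure D3:**
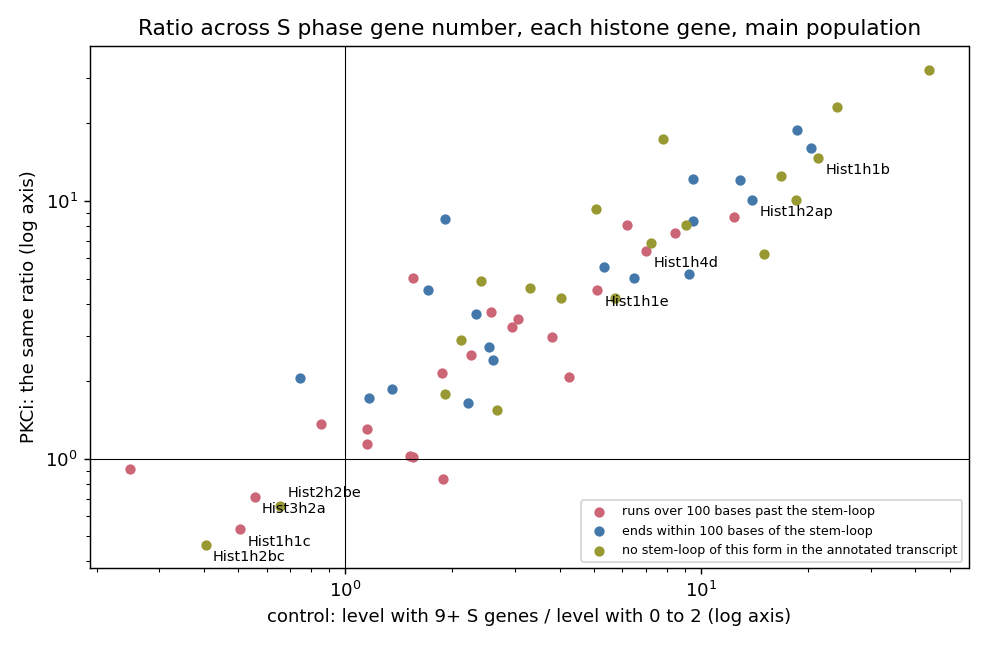
Each point is 1 histone gene of the main population, placed by the ratio of its level in cells with 9 or more S phase genes to that in cells with 0 to 2, in the control library (horizontal log axis) and the PKCi library (vertical log axis), coloured by where its annotated transcript ends. Most genes lie above 1 on both axes, and Hist1h2bc, Hist1h1c, Hist3h2a and Hist2h2be lie below 1 on both.

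Between the libraries, histone genes of the main population stood at 1201 CPM in the control and 1329 in the PKCi library (1.11, 1.10 to 1.11). The higher total came from few genes. Hist1h2bc stood at 139 CPM in the control and 224 in the PKCi library (1.61, 1.59 to 1.64). Hist1h1c stood at 85.6 and 124 CPM (1.45, 1.42 to 1.47), and Hist1h1e at 125 and 148 (1.18, 1.16 to 1.20). Hist1h2bc and Hist1h1c are among the genes that were lower in cells rich in S phase genes, while Hist1h1e was higher in those cells. The others that were lower there differed less between the libraries, Hist3h2a at 23.0 and 24.8 CPM and Hist2h2be at 2.29 and 2.15.

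The other genes among the 10 highest differed less between the libraries. Hist1h1b stood at 184 and 189 CPM (1.03, 1.01 to 1.04), Hist1h2ap at 99.2 and 109 (1.10), and Hist1h2ae at 107 and 105 (0.982). Hist1h4d stood at 98.5 and 88.9 CPM (0.902), Hist2h2ac at 41.2 and 39.3 (0.953), Hist1h3c at 31.3 and 26.5 (0.847) and Hist3h2a at 23.0 and 24.8 (1.08). By type, H2B genes were 1.39 times and linker histone genes 1.16 times as high in the PKCi library as in the control, H2A genes were level at 341 and 342 CPM, and H3 and H4 genes stood at 0.897 and 0.907 of the control.

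Of 59 histone genes measured in the main population, 2 were at least 1.5 times higher in the PKCi library, Hist1h2bc and Hist2h3c2, against 5.18% of all 17684 genes measured there. The H2B gene Hist1h2bp was the only one lower by a factor of at least 1.5, against 7.11% of all genes. Hist2h3c2 had 185 and 360 UMIs (1.91, 1.60 to 2.30) and Hist1h2bp 322 and 218 (0.665, 0.558 to 0.793), and both share more than 50% of their words with other histone genes. The median log2 ratio was -0.06 over the 59 genes and -0.03 over all genes, and the former was -0.0012 when cells were thinned to equal depth.

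**Figure D4:**
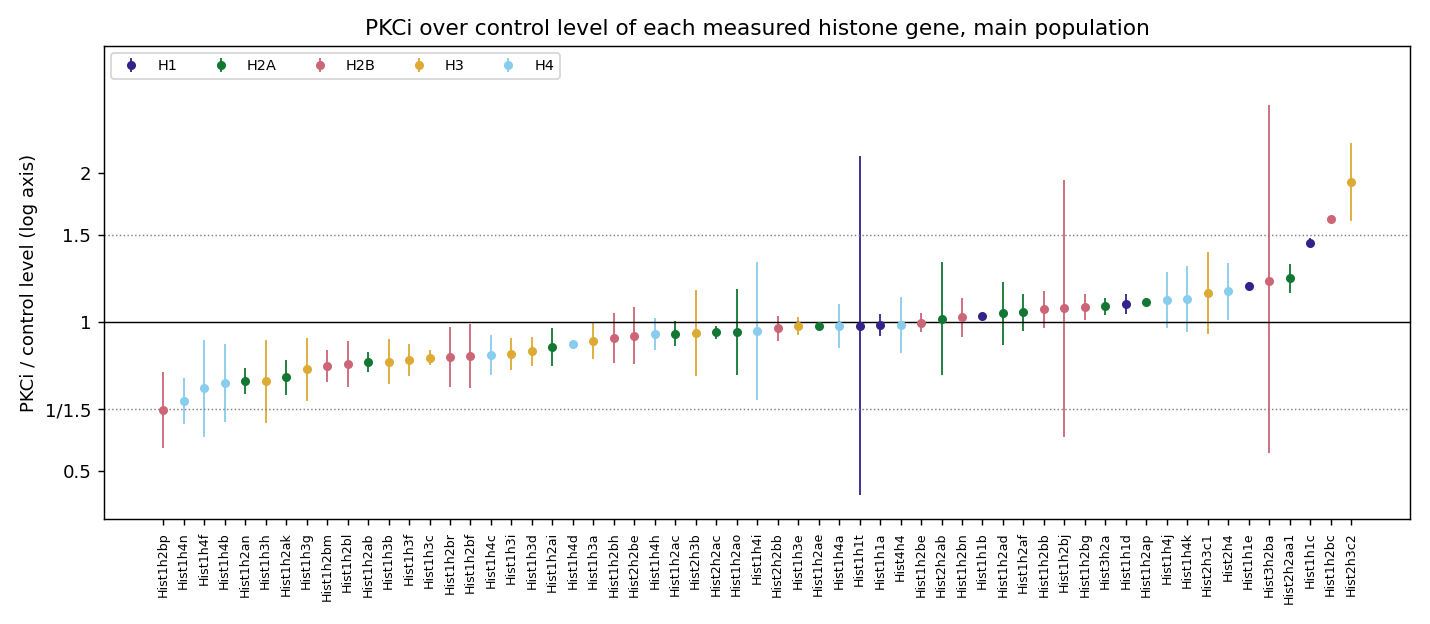
Ratio of the level in the PKCi library to that in the control library (vertical log axis) for each of the 59 histone genes measured in the main population, in order of the ratio and coloured by histone type, with bars for the 95% counting interval. Most genes lie near 1, Hist1h2bc and Hist1h1c lie above it with narrow bars at 1.61 and 1.45, and Hist2h3c2 and Hist1h2bp lie at 1.91 and 0.665 with wide bars.

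The higher level of Hist1h2bc and Hist1h1c in the PKCi library was present in each S phase group. Hist1h2bc was 1.54 times as high in cells with 0 to 2 S phase genes, 1.46 times with 3 to 8 and 1.77 times with 9 or more. Hist1h1c was 1.35, 1.48 and 1.42 times as high in the same groups. The ratio over all histone genes was 1.33, 1.17 and 1.08. Among the 10 clusters of the main population with at least 20 cells of each library, Hist1h2bc and Hist1h1c were higher in the PKCi library in 9 and the total in 7, and cluster 1 had the lowest ratio for each, at 0.975, 0.961 and 0.822.

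Genes of fixed lists around histone supply differed little between the libraries in the main population. Of 42 S phase genes, 52 G2/M genes, 25 genes of histone transcription and 3′ processing, 11 polyadenylated histone variants and 26 histone chaperones, 0 were at least 1.5 times higher or lower. Over all genes measured there, 5.18% were that much higher and 7.11% that much lower. Some genes, such as Slbp, Casp8ap2 and Nasp, are on more than 1 of these lists. Slbp, which encodes the stem-loop binding protein, stood at 93.5 CPM in the control and 85.0 in the PKCi library (0.909). The transcription coactivator Npat stood at 22.6 and 22.5, and Casp8ap2, whose protein FLASH takes part in histone end cleavage, at 42.7 and 39.6 (0.929). Zfp473, which encodes a zinc finger protein of the processing complex, was low at 0.838 and 1.14 CPM (1.36, 1.11 to 1.66). The chaperone Nasp stood at 209 and 180 CPM (0.862) and the variant H2afz at 1480 and 1650 (1.11), while H3f3b, at 1638 and 1622, and the linker variant H1f0, at 183 in both, differed by less.

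Other cell classes were compared with the main population to see where else histone messages were captured. All histone genes together stood at 775 CPM in control and 694 in PKCi monocyte-like cells, at 1113 and 1051 in macrophage-like cells and at 657 and 476 in neutrophil-like cells. T-like cells stood at 1071 and 1311 CPM and NK-like cells at 1222 and 985. Fibroblast-like cells (24 and 26 cells) stood at 515 and 454 and endothelial-like cells (19 and 31 cells) at 798 and 640. Macrophage-like, T-like and NK-like cells thus reached 74.1% to 102% of the main population level.

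The genes behind the totals differed by class. In monocyte-like cells Hist1h1c stood at 275 and 255 CPM, above its 85.6 and 124 in the main population, and Hist1h2bc at 210 and 203. Hist1h1b stood there at 12.3 and 22.2 CPM, 6.67% and 11.7% of the main population level. In neutrophil-like cells, whose mature form does not divide, Hist1h1c stood at 226 and 139 and Hist1h2bc at 209 and 156 CPM, while Hist1h1b had 4 and 2 UMIs. Neutrophil-like cells were shallow, with medians of 3372 and 2004 UMIs. In macrophage-like cells Hist1h1c reached 284 and 347 CPM, Hist1h2bc 238 and 275, and Hist1h1b 98.9 and 49.96.

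Krt8, which immune cells should lack, serves as the measure of RNA from the main population in other droplets. It stood at 7.27% and 6.59% of the main population level in monocyte-like cells, 11.6% and 19.6% in macrophage-like cells and 10.2% and 12.7% in neutrophil-like cells. The share of Hist1h1b in neutrophil-like cells (2.16% and 2.95%) was below that of Krt8 and is read as background. In monocyte-like cells the share of Hist1h1b (6.67% and 11.7%) was below that of Krt8 in the control and above it in the PKCi library. Hist1h1c and Hist1h2bc in these classes were far above such shares, at 321% and 206% and at 151% and 90.5% of the main population level in monocyte-like cells. After thinning to 2000 UMIs, 19.9% and 20.9% of main population cells had a UMI of Hist1h1b (56.5% and 59.2% before thinning), against 0.435% of 230 control neutrophil-like cells and 0 of 85 PKCi neutrophil-like cells, which allows up to 3.53%.

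Relative to the main population, the genes with the highest level in all other cells together were Hist1h1c (276% and 213%), the H3 genes Hist2h3c1 (220% and 261%) and Hist2h3c2 (239% and 77.7%), and the H4 genes Hist1h4c (151% and 147%) and Hist4h4 (139% and 148%). This ranking covers genes with at least 200 UMIs in the main population. The other cells include the unnamed ones, whose largest cluster (74 control and 99 PKCi cells) held Krt8 at 265 CPM.

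Between the libraries, the totals of the 3 immune classes with at least 100 cells in each were lower in the PKCi library, where that of the main population was higher. The ratio was 0.895 (0.850 to 0.942) in monocyte-like cells, 0.945 (0.913 to 0.978) in macrophage-like cells and 0.725 (0.609 to 0.859) in neutrophil-like cells. Different clusters held the neutrophil-like cells of each library: cluster 14.0 held 24 control and 136 PKCi cells, cluster 14.1 held 100 and 3, and cluster 14.2 held 143 and 28. T-like cells, with fewer cells, had a ratio of 1.22 and NK-like cells one of 0.807. The ratios of the 3 larger classes were not stable. They changed sign in monocyte-like cells when the cell cycle and histone genes were kept for clustering, in macrophage-like cells when each cell was weighted alike or thinned, and in neutrophil-like cells under 3 other ways of filtering and clustering.

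In macrophage-like cells, 43 histone genes were measured, and for 17 of them the PKCi level was lower by a factor of at least 1.5, against 6.21% of all genes, while 3 were that much higher, against 13.8%. Hist1h1b stood at 98.9 and 49.96 CPM (0.505, 0.441 to 0.579), Hist1h1e at 74.5 and 48.7 (0.653) and Hist1h2ae at 57.6 and 33.8. The lowest ratios with intervals under 1 were those of the H4 gene Hist1h4n (0.264), the H2B genes Hist1h2bm (0.280), Hist1h2bj (0.327) and Hist3h2ba (0.379), and the H2A genes Hist1h2ag (0.421) and Hist1h2ab (0.504). These rest on few UMIs. Even over all immune classes summed, Hist1h4n had 26 and 12, Hist1h2bm 28 and 17, Hist1h2ag 30 and 24 and Hist1h2ab 77 and 61. Apart from Hist3h2ba, the genes named here share 54.7% to 87.5% of their words with other histone genes. The median log2 ratio over the 43 genes was -0.39, and -0.056 with thinned cells. On the log2 scale, Hist1h2bm moved from -1.80 to values between -2.65 and -2.56 under 4 alternatives, and Hist1h2bj and Hist3h2ba from -1.59 and -1.37 to -1.01 and -0.76 at Leiden resolution 0.5. Hist1h1c, at 284 and 347 CPM (1.22), and Hist1h2bc, at 238 and 275 (1.15), went the other way. Of 51 G2/M genes measured in these cells, 14 were also at least 1.5 times lower. The macrophage-like cells with 9 or more S phase genes, 32 control and 72 PKCi cells, stood at 2097 and 1185 CPM of histone genes. The other groups, which hold most of the cells, went the other way. Those with 0 to 2 S phase genes (105 and 220 cells) stood at 890 and 958 CPM, and those with 3 to 8 (109 and 208 cells) at 915 and 1072. Krt8 moved with the class too, from 44.2 to 94.5 CPM, and its part in these values was not tested.

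In monocyte-like cells, 21 histone genes were measured, of which 2 were at least 1.5 times higher in the PKCi library, against 15.8% of all genes, and 5 that much lower, against 8.1%. Hist1h1b had 52 and 84 UMIs (1.81, 1.26 to 2.60) and Hist1h2ap had 28 and 42 (1.68). The log2 ratios of 0.85 and 0.74 were 0.16 and 0.053 without the 1% of cells with most histone UMIs, and 0.17 and 0.14 with doublets kept. Both stood in the PKCi library at 10.2% to 11.7% of the main population level, beside 6.59% for Krt8. The H4 gene Hist1h4i stood at 31.7 and 19.0 CPM (0.601), Hist3h2a at 18.0 and 11.9 (0.662), and the H2A gene Hist1h2ac had a ratio of 0.447. With cycle and histone genes kept for clustering, the log2 ratio of Hist3h2a went from -0.59 to 0.28 and that of Hist1h2ac from -1.12 to -1.81. In neutrophil-like cells only 5 histone genes were measured. Of these Hist1h2be had a ratio of 1.94, Hist1h1e of 0.322 on 61 and 7 UMIs and Hist1h1c of 0.615, where 28.3% of all genes were at least 1.5 times higher and 14.6% that much lower. The log2 ratio of Hist1h1e, -1.55, was 0.090 with cycle and histone genes kept, 0.10 at resolution 0.5, -0.24 with at least 1000 genes and at most 10% mitochondrial UMIs and -0.87 with doublets kept. Under that stricter filter Hist1h2be went from 0.96 to 0.36 and Hist1h1c from -0.69 to -0.066.

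**Figure D5:**
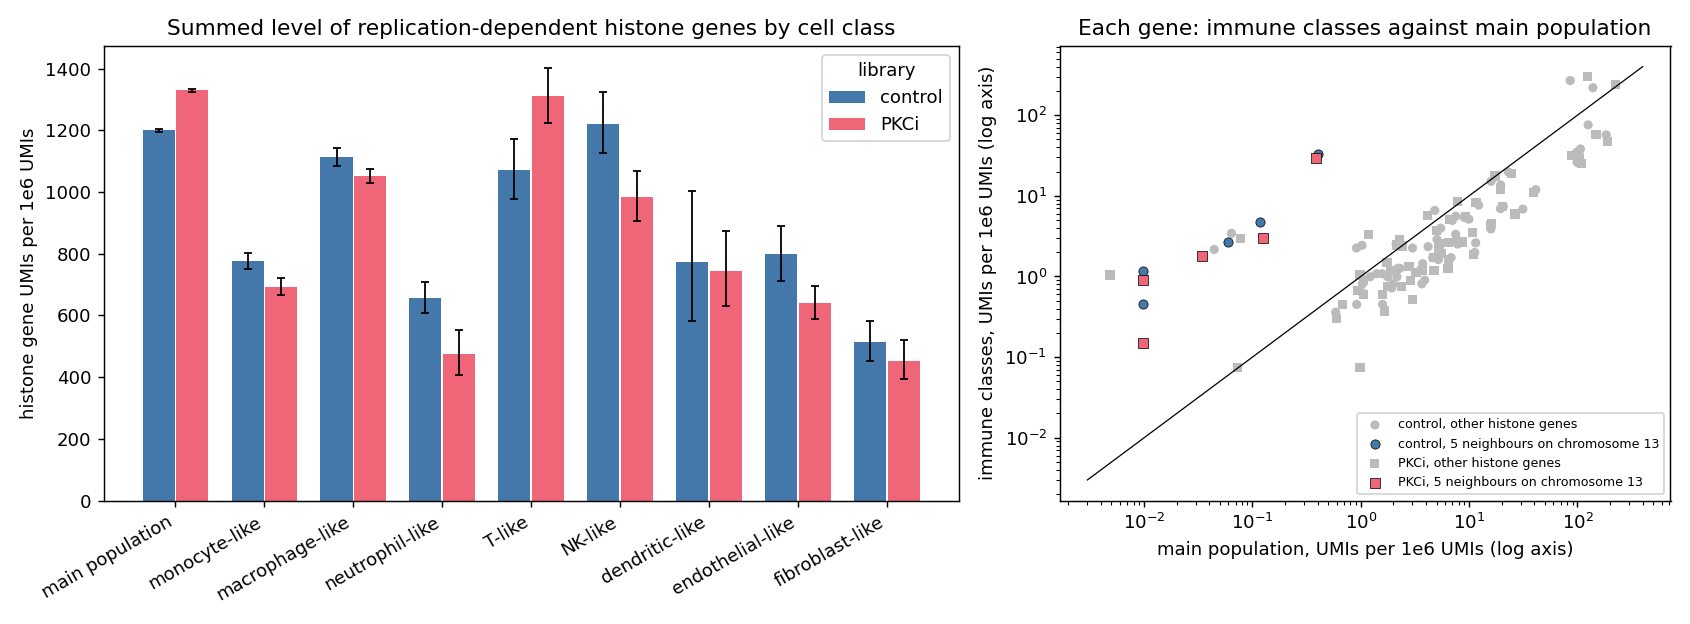
Left, level of all histone genes in CPM (vertical axis, from 0) by cell class and library, with bars for the counting interval. Right, each histone gene by its level in the main population and in the 6 immune classes summed (log axes), with the 5 neighbours on chromosome 13 coloured. Hist1h4i lies far above the line of equal levels in both libraries. Its neighbours and the grey points of Hist3h2ba and Hist1h4m also lie above it but rest on few UMIs, with Hist1h2ah and Hist1h2bk on 2 in the main population of each library.

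Levels were also set out by genomic position, and the genes and the stretch described here were chosen after their values were seen. The H4 gene Hist1h4i (chr13:22040636-22041362, minus strand), with its stem-loop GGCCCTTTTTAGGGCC, was nearly absent from the main population, with 82 UMIs (0.404 CPM) in the control and 80 (0.387 CPM) in the PKCi library. In the 6 immune classes summed, 1182 control and 1460 PKCi cells, it stood at 32.5 and 29.7 CPM, which was 80.5 times (63.2 to 104) and 76.6 times (60.1 to 98.6) as high. Over all 18411 genes with at least 20 UMIs, 10.3% and 10.4% were at least 10 times higher in the immune classes. By class it stood at 31.7 and 19.0 CPM in monocyte-like cells, 33.9 and 34.6 in macrophage-like cells, 27.8 and 33.4 in neutrophil-like cells, 28.8 and 49.6 in T-like cells and 44.7 and 15.5 in NK-like cells. Each immune class with over 30 cells in both libraries was thus above the main population, in both libraries.

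Hist1h4i lies in a stretch of 8.51 kb (chr13:22035164-22043676) with the H2A genes Hist1h2ah and Hist1h2ag and the H2B genes Hist1h2bk and Hist1h2bj. All 5 genes together had 122 UMIs in the main population of the control (0.601 CPM) and 117 in that of the PKCi library (0.567 CPM). They stood at 41.6 and 35.5 CPM in the immune classes, 69.2 times (56.6 to 85.2) and 62.6 times (51.0 to 77.3) as high. Hist1h4i alone held 361 of the 462 UMIs of the stretch in the control immune classes and 398 of the 476 in the PKCi ones. Apart from Hist1h4i, Hist1h2ag was 45.7 and 52.8 times, Hist1h2bj 40.4 and 23.7 times and Hist1h2bk 119 and 92.3 times as high, the last on 2 UMIs in the main population of each library. Hist1h2ah had 2 UMIs in the main population of each library and 5 and 2 in the immune classes. These 4 genes share between 67.2% and 91.2% of their words with other histone genes, so the assignment of their few UMIs is uncertain.

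Other stretches with histone genes did not show such a ratio. On chromosome 13, the 18 genes at chr13:21715763-21837530, which include Hist1h1b, stood in the immune classes at 0.313 and 0.258 of the main population level, and the 29 genes at chr13:23531050-23764406, which include Hist1h1c and Hist1h2bc, at 0.970 and 0.860. The 10 genes on chromosome 3 stood at 0.428 and 0.429, the 2 genes on chromosome 11 at 1.00 and 0.878, and Hist4h4 on chromosome 6 at 1.10 and 1.25. The level of a stretch does not hold for each of its genes. On chromosome 11 the H2B gene Hist3h2ba had 38 and 40 UMIs in the immune classes and 13 and 16 in the main population. Hist3h2ba, the H4 gene Hist1h4m, Hist1h2ag and Hist1h2bk had so few UMIs in the main population that they were measured mainly through the cells where they are high, so no count of such genes is given.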

How the data were processed

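Cells of dissociated tumours were measured in 2 libraries, 1 control and 1 PKCi, with 10x 3′ chemistry as the labels state. The authors deposited raw UMI counts per gene and barcode from Cell Ranger 7.0.0, per the file headers, and the submitters' processing notes name GRCm38, Cell Ranger and Seurat. The annotation release, the handling of multi-mapping reads and the use of Seurat are not given in the sources used here. The submitters' reads were not used here.

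Barcodes needed at least 500 genes (247 control and 200 PKCi barcodes failed) and at most 20% of UMIs from mitochondria (61 and 47 failed). Scrublet, at an expected rate of 6%, called 111 (1.74%) and 132 (1.83%) doublets, which were removed. Counts were scaled to 10000 per cell. Clusters used 2000 variable genes without histone, S phase and G2/M genes, 30 components, 15 neighbours and Leiden resolution 1, with sub-clusters at 0.5 and no batch correction. Classes were named from marker lists, with thresholds set after the data were seen, so class limits may differ from the study's.

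A level is the sum of UMIs over the cells of a class and library per 1e+06 UMIs of that sum. Intervals are exact at 95% (Poisson for a level, conditional binomial for a ratio, Clopper-Pearson for a share). The median ratios use an added count of 0.5. Cells were thinned to 5000 UMIs to count cell cycle genes, and to 2000 for shares of cells, where 5000 had been planned, because few neutrophil-like cells were deep enough. The interval code was tested on simulated data.

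The histone genes, the other lists and the comparisons were chosen with earlier results of these data known. The genes named were the 10 highest in the main population and the highest of each type, those at least 1.5 times different between libraries in a class of 100 cells or more with an interval that leaves out 1 (up to 6 each way), the 5 highest and 5 lowest S phase ratios and the 5 highest outside the main population among genes with 200 UMIs there, and up to 4 examples of each other list. The groups of 9 or more and 0 to 2 S phase genes, the grid with G2/M genes, the classes of annotated ends, the genes named for these and the stretch of chromosome 13 were chosen after the values were seen. Alternatives covered filters, doublets, clustering, weighting, depth, scaling, shared barcodes and cell cycle thresholds. Python 3.11.15, numpy 2.4.6, scipy 1.17.1, pandas 2.3.3, scanpy 1.11.5, leidenalg 0.10.2 and matplotlib 3.10.9 were used.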

Additional observations from a re-analysis of the deposited data

Results flagged for a closer look

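Some PKCi to control ratios pointed to opposite sides of 1 in different cell classes, each with a counting interval that leaves out 1, and the differences themselves were not tested because each group has 1 library. For all histone genes together the main population had a ratio of 1.11, monocyte-like cells 0.895, macrophage-like cells 0.945 and neutrophil-like cells 0.725.

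Hist1h1b had ratios of 1.03 in the main population, 1.81 in monocyte-like and 0.505 in macrophage-like cells, and Hist1h2ap had 1.10, 1.68 and 0.712 in the same classes. The monocyte-like log2 ratios of 0.85 and 0.74 were 0.16 and 0.053 without the 1% of cells with most histone UMIs. Hist1h1e had 1.18 in the main population, 0.759 in monocyte-like, 0.653 in macrophage-like and 0.322 in neutrophil-like cells. The neutrophil-like value, -1.55 on the log2 scale, was 0.090 with cycle and histone genes kept for clustering, 0.10 at Leiden resolution 0.5 and -0.24 with at least 1000 genes and at most 10% mitochondrial UMIs. Hist1h1c had 1.45 in the main population, 1.22 in macrophage-like and 0.615 in neutrophil-like cells. Hist3h2a had 1.08 in main population cells and 0.662 in the monocyte-like ones, where its log2 ratio went from -0.59 to 0.28 with cycle and histone genes kept for clustering.

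Histone UMIs were also present in droplets outside the named classes. The unnamed cells stood at 1226 CPM in the control and 1499 in the PKCi library, and barcodes under 500 genes at 556 and 596 CPM.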

How the results depend on the processing

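All values here are log2 ratios. The results were recomputed under 7 to 13 alternatives each. Of the 169 values, 92 stayed within the counting interval of the value given, 70 moved further, among them the monocyte-like median with a change of sign, and 7 others changed sign, and where the construction does not show it the cause was not tested. No paired analysis was possible because each group has 1 library. The total in the main population was 0.15 and lay between 0.14 and 0.22 over 10 alternatives, with 0.16 without the 1% of cells with most histone UMIs, 0.19 with cells weighted alike, 0.22 with thinned cells, 0.17 without Hist1h1b and 0.17 scaled by the median gene, and its median over genes, -0.06, was -0.0012 with thinned cells.

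Monocyte-like cells gave -0.16 for the total. This was -0.25 with at least 1000 genes and at most 10% mitochondrial UMIs, -0.24 with doublets kept, 0.54 with cycle and histone genes kept for clustering, -0.29 thinned and -0.32 scaled by the median gene, and the median over genes went from -0.40 to 0.36 with those genes kept. Macrophage-like cells gave -0.08. This was -0.15 with doublets kept, 0.091 with cells weighted alike, 0.052 thinned, -0.24 without Hist1h1c and -0.17 scaled by the median gene, and the median over genes went from -0.39 to -0.056 thinned. Neutrophil-like cells gave -0.46. This was 0.15 under the stricter filter, -0.17 with doublets kept, 0.44 with cycle and histone genes kept and 0.44 at Leiden resolution 0.5. Under the stricter filter Scrublet called only 1 control barcode, so control doublets stayed in. At resolution 0.5 no monocyte-like class was found.

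For cells with 3 or more S phase genes against cells with neither list, the control total was 1.49. It was 1.29 at 2 and 1.24 at 4 list genes, 1.26 thinned to 3000 UMIs, 1.28 from thinned UMIs, 1.12 under the stricter filter, 1.01 with doublets kept, 1.24 for 9 or more against 0 to 2 S phase genes and 1.25 without Hist1h1b. The median over genes was 1.44, and 0.059 at 2 list genes, 2.04 at 4, 2.11 at 3000 UMIs and 0.25 from thinned UMIs. The PKCi total was 0.76, and 0.89 at 4 list genes, 0.93 at 3000 UMIs, 0.58 from thinned UMIs, 0.93 with doublets kept, 0.94 for 9 or more against 0 to 2 and 1.62 without Hist1h2bc. Its median over genes was 1.55, and -0.35 at 2 list genes, 2.30 at 3000 UMIs and 0.47 from thinned UMIs.

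Against the main population, monocyte-like cells gave -0.63 in the control, with -0.50 under the stricter filter, -0.46 with doublets, -0.79 with cycle and histone genes kept, -0.69 without cells over 100 CPM of Krt8, -0.40 weighted alike and -0.38 thinned. In the PKCi library they gave -0.94, with -0.85 with doublets, -0.40 with those genes kept, -0.72 weighted alike and -0.88 thinned. Macrophage-like cells gave -0.11 in the control, with -0.34 at resolution 0.5, -0.060 without Krt8-rich cells and -0.15 weighted alike. In the PKCi library they gave -0.34, with -0.39 under the stricter filter, -0.38 with doublets, -0.40 with those genes kept, -0.51 at resolution 0.5 and -0.25 both weighted alike and thinned. Neutrophil-like cells gave -0.87 in the control, with -0.25 under the stricter filter, -0.14 with doublets, -0.68 with those genes kept, -0.69 at resolution 0.5, -0.56 weighted alike and -1.27 thinned. In the PKCi library they gave -1.48, with -0.24 under the stricter filter, -0.46 with doublets, -0.39 with those genes kept and -0.39 at resolution 0.5. The 5 neighbours on chromosome 13 gave 6.11 in the control, with 5.49 under the stricter filter, 5.70 with doublets, 5.74 weighted alike and 6.52 thinned, and 5.97 in the PKCi library, with 5.66 with doublets.

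The class comparisons outside the main population rest on few cells and shallow droplets, and their direction between libraries should be read with these values beside it. The main population total kept its sign under every alternative run for it. None of these left out Hist1h2bc or Hist1h1c, which differed most among the genes behind the higher total, so how far the total depends on them was not tested. The ratio of the 5 neighbours also kept its sign, but the stretch was chosen for its high ratio, so the kept sign lends it no support.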

Other observations

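Genes on both sides of the 8.51 kb stretch were looked at because Hist1h4i and its neighbours were nearly absent from the main population. Gm11290 (chr13:22014468-22020738) stood at 11.5 and 8.16 CPM in the main population and at 74.9 and 62.1 in the immune classes, 6.53 and 7.61 times as high. Gm11280 (chr13:21940374-21945197) had ratios of 14.0 and 5.50 on 34 and 42 UMIs in the main population. The nearest gene, Gm11292 (chr13:22026699-22032196), had 12 and 15 UMIs in the main population and 2 and 0 in the immune classes, a ratio of 3.05 (0.331 to 13.7) in the control. On the other side, the first gene with at least 20 UMIs started only at chr13:23276204, so the sides are not compared at like distances. The zinc finger gene Zfp322a (chr13:23353103-23369208) stood at 14.7 and 14.5 CPM in the main population, with ratios of 0.643 and 0.852. Abt1 (chr13:23418361-23423866), an activator of basal transcription, stood at 24.1 and 20.8 CPM, with ratios of 0.531 and 0.642. These values are a description of a region chosen after its values were seen.

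The H2B gene Hist3h2ba stood at 35.5 and 22.4 CPM in T-like cells and at 0.0641 and 0.0775 in the main population.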
